A study of Mus musculus with 4 samples.

Results

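The sirtuins are the 7 mouse genes Sirt1 to Sirt7, taken from the authors' deposited table of read counts by their symbols. All 7 have 1 row each among the 29190 genes of that table, and all 7 passed the filter on low counts that left 17419 genes for testing. They were measured by RNA sequencing in kidneys of male C57 mice aged 8 weeks, with 2 libraries from mice injected with cisplatin at 30 mg/kg and 2 from mice injected with physiological saline. The injected mice were killed after 24 h or 48 h, and the sources used here do not say which of these times the cisplatin libraries represent. Each group's 2 libraries are described as biological replicates, and whether a library pools several mice is not stated. The p-values therefore rest on the spread between these libraries, which the tests of single genes share in part across all genes. Cisplatin, a platinum compound used against tumours, forms DNA adducts and harms the kidney tubule, and the comparison asks which kidney transcripts differ after it.

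Sirtuins are enzymes that remove acetyl and related acyl groups from lysines of proteins, or transfer ADP-ribose, and they consume NAD in each reaction, so that their activity follows the supply of this cofactor. They are sorted by where they work: Sirt1, Sirt6 and Sirt7 in the nucleus, Sirt2 mainly in the cytosol, and Sirt3, Sirt4 and Sirt5 in mitochondria, of which kidney tubule cells hold many. In mice, forced expression of Sirt1 in the proximal tubule lessens cisplatin injury and loss of Sirt3 worsens it.

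Library totals ran between 20662475 and 27122403 counts. Libraries of a group correlated at 0.992 (saline) or more over log2 CPM (counts scaled to a common library total), and libraries of different groups at 0.894 or less. The kidney label was checked against 12 marker genes of the proximal tubule, where most filtrate is taken back up, which summed to between 2880 and 2918 CPM in the cisplatin libraries and between 19301 and 19660 CPM in the saline libraries.

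The 3 mitochondrial sirtuins and the cytosolic Sirt2 had less transcript after cisplatin, and the nuclear Sirt1 and Sirt6 had more. Sirt3 showed the largest change of the 7, at 32.7% of its saline level, followed by Sirt5 at 43.4%. Sirt6 stood at 1.71 times and Sirt1 at 1.46 times the saline level. Sirt7, which sits in the nucleolus, was lower by little, and its direction depended on how the libraries were scaled. In edgeR's quasi-likelihood test with Benjamini-Hochberg adjustment over all tested genes, 2 of the 7 passed as higher, where 37.2% of all tested genes did, and 5 passed as lower, where 36.4% did. Of all tested genes 73.6% passed in either direction, so that passing the test was common in this comparison. For all 7, the CPM ranges of cisplatin and saline libraries were apart, as they were for 86.3% of all tested genes.

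**Figure D1:**
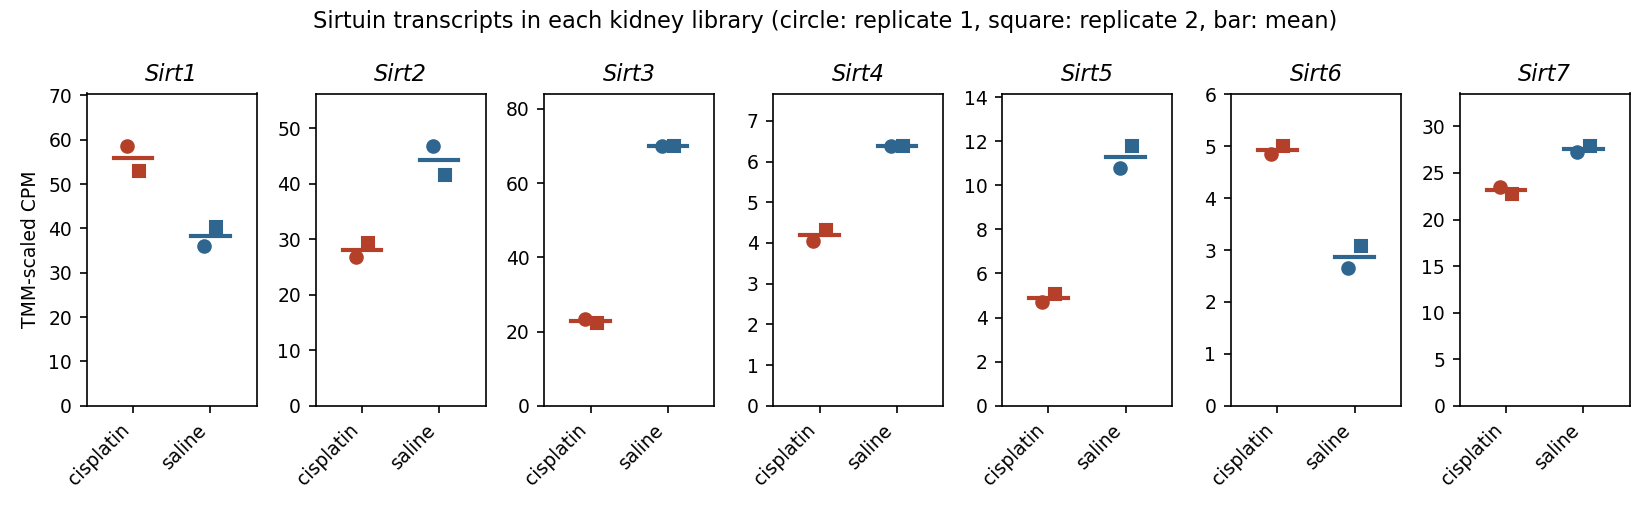
CPM after TMM scaling (vertical axes, each from 0) of the 7 sirtuins in 2 cisplatin libraries (red, left) and 2 saline libraries (blue, right); points are libraries and bars their mean. Sirt1 and Sirt6 sit higher after cisplatin and the other 5 lower, with Sirt3 at 23.3 and 22.4 CPM against 70.1 and 70.0 CPM.

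Sirt1 (ENSMUSG00000020063.14) encodes a nuclear deacetylase of histones and of regulators such as p53 and the FOXO factors. Its GENCODE M21 span on GRCm38 is chromosome 10, 63319005 to 63381704, minus strand. Sirt1 had 1392 and 1374 counts after cisplatin against 668 and 985 after saline. After scaling by TMM (trimmed mean of M values, which corrects for composition) these were 58.7 and 52.98 CPM after cisplatin and 36.1 and 40.4 CPM after saline. Both cisplatin libraries were above both saline libraries. Its log2 fold change, cisplatin over saline here and throughout, was 0.54 (standard error, SE, 0.08; edgeR, adjusted p = 2.64e-06), and 68.5% of tested genes had a lower one. Sirt1 passed as higher in each of the 16 fits made, at log2 fold changes between 0.45 and 0.91.

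The Sirt1 promoter is shown because Sirt1 was the most abundant of the sirtuins that rose, and because it was the sirtuin window with an E-box, the letters CACGTG bound by factors such as MYC, USF and the clock proteins. The 300 bases run from 250 before to 50 after the RefSeq start, at chr10:63338986-63339285 on the minus strand of GRCm38.p6, with the E-boxes in capitals. This RefSeq start lies inside the GENCODE span of Sirt1 and not at the end of that span, 63381704.
Sirt1: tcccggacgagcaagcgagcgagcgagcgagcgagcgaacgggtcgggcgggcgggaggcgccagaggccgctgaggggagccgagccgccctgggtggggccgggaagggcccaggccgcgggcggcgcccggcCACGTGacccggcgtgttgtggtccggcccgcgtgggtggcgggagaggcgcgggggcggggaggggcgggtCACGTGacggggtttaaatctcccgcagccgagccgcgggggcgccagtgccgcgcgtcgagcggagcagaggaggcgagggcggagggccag

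This window held 2 E-boxes, where 7.15% of 32817 promoters of the same length in the RefSeq table held at least 1. It also held 7 GC boxes (GGGCGG), a motif found in 35.6% of the promoters. G and C made up 79.0% of it, against a median of 52.7% over all promoters.

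Sirt6 (ENSMUSG00000034748.14) encodes a chromatin-bound deacetylase that takes part in DNA break repair and in the repression of glycolytic genes. The gene spans 81621785 to 81627797 on the minus strand of chromosome 10. Sirt6 had 115 and 130 counts after cisplatin against 49 and 75 after saline, and was the least counted of the 7 after saline. The 95% Poisson interval of the count of 49 ran between 36.3 and 64.8, and such intervals cover counting error alone. On the CPM scale the cisplatin libraries stood at 4.85 and 5.01, above the saline libraries at 2.65 and 3.07. On the log2 scale the change was 0.77 (SE 0.20; edgeR, adjusted p = 0.0016), it passed in each of the 16 fits, and 74.96% of tested genes had a lower one.

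The window around the upstream of the 2 RefSeq starts of Sirt6, the other sirtuin that rose, is shown for an Ets motif, CCGGAAG, the core bound by Ets family factors. The window is chr10:81627517-81627816, minus strand, GRCm38.p6, and the capitals mark the motif, here as its reverse complement.
Sirt6: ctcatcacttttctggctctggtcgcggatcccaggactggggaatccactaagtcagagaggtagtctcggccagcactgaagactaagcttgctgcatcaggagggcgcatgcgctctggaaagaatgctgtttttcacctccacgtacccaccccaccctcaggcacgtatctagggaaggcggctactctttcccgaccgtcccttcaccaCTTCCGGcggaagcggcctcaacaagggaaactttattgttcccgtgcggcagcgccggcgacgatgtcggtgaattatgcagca

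Sirt7 (ENSMUSG00000025138.12) encodes a nucleolar enzyme that promotes transcription of ribosomal RNA genes. Its span on chromosome 11 is 120618372 to 120625240, minus strand. The cisplatin libraries held 558 and 590 counts, or 23.5 and 22.8 CPM, and the saline libraries 503 and 682 counts, or 27.2 and 27.9 CPM. The log2 fold change was -0.25 (SE 0.09; edgeR, adjusted p = 0.0145), and 38.2% of tested genes had a lower one. The cisplatin libraries were below the saline libraries in CPM, but overlapped them in FPKM (fragments per kilobase of transcript, scaled for depth, the authors' second table), at 9.12 and 8.67 FPKM after cisplatin against 8.26 and 9.34 FPKM after saline. With scaling by library size alone the log2 fold change was 0.11 (edgeR, adjusted p = 0.314), and 8 of the 16 fits called Sirt7. Without cisplatin replicate 2 its adjusted p in edgeR was 0.0824, and without saline replicate 2 it was 0.056.

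Sirt2 (ENSMUSG00000015149.11) encodes a mainly cytosolic deacetylase whose substrates include alpha-tubulin. Its span on chromosome 7 is 28766735 to 28788661, plus strand. The cisplatin libraries held 636 and 761 counts, or 26.8 and 29.3 CPM, and the saline libraries 866 and 1014 counts, or 46.9 and 41.5 CPM. The cisplatin libraries were below the saline libraries on both scales. The log2 fold change was -0.65 (SE 0.08; edgeR, adjusted p = 8.89e-07). It ranged from -0.74 to -0.28 over the 16 fits, each of which called it lower, the smallest size coming with library size alone.

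Sirt3 (ENSMUSG00000025486.14) encodes the main deacetylase of the mitochondrial matrix, where its substrates include superoxide dismutase 2 and isocitrate dehydrogenase 2. It lies on chromosome 7 from 140863666 to 140882309 on the minus strand. The cisplatin libraries held 553 and 582 counts and the saline libraries 1296 and 1708. This made 23.3 and 22.4 CPM after cisplatin against 70.1 and 70.0 CPM after saline, so that the replicates of a group nearly coincided and the groups lay far apart. The log2 fold change was -1.61 (SE 0.07; edgeR, adjusted p = 6.10e-14), and 7.80% of tested genes had a lower one. Over the 16 fits it lay between -1.64 and -1.25 and was called in each.

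The Sirt3 promoter is shown because Sirt3 fell the most. Of its 2 windows in the RefSeq table the one whose start coincides with the end of the GENCODE span is given, chr7:140882260-140882559, minus strand, GRCm38.p6, with the Ets motif in capitals, again as its reverse complement.
Sirt3: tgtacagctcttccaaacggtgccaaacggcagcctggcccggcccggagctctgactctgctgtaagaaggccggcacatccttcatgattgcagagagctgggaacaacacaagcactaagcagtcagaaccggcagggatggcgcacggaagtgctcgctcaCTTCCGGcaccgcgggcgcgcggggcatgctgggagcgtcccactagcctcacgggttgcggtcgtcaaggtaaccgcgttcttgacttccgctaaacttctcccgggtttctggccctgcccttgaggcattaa

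Ets motifs were in 8.86% of the promoters, and the printed Sirt6 window and the Sirt7 window held them too. All 7 sirtuins had at least 1 window in the table, 9 in all. Both strands were searched for these motifs and for the CCAAT box (CCAAT), the TATA box (TATAAA), the FOXO motif (TGTTTAC) and a p53 half-site, and the printed motifs overlap no other match in their windows. A match describes the letters only, and no measurement of binding was made.

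Sirt5 (ENSMUSG00000054021.5) encodes the mitochondrial enzyme that removes succinyl, malonyl and glutaryl groups. Its span on chromosome 13 is 43365496 to 43395203, plus strand. The cisplatin libraries held 112 and 132 counts, or 4.72 and 5.09 CPM, and the saline libraries 199 and 288 counts, or 10.8 and 11.8 CPM. Each cisplatin library was below each saline library. Its log2 fold change was -1.20 (SE 0.14; edgeR, adjusted p = 3.26e-07), 12.6% of tested genes had a lower one, and the 16 fits placed it between -1.28 and -0.72.

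Sirt4 (ENSMUSG00000029524.14) encodes a mitochondrial ADP-ribosyltransferase and lipoamidase that restrains glutamate dehydrogenase. The gene lies on chromosome 5 from 115478010 to 115484725 on the minus strand. The cisplatin libraries held 96 and 112 counts, or 4.05 and 4.32 CPM, and the saline libraries 118 and 156 counts, or 6.39 CPM in each. The cisplatin libraries were below the saline libraries. On the log2 scale the change was -0.61 (SE 0.17; edgeR, adjusted p = 0.00322), and 12 of the 16 fits called it. With library size alone it was -0.24 (edgeR, adjusted p = 0.206), and the fits on FPKM did not call it either.

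**Figure D2:**
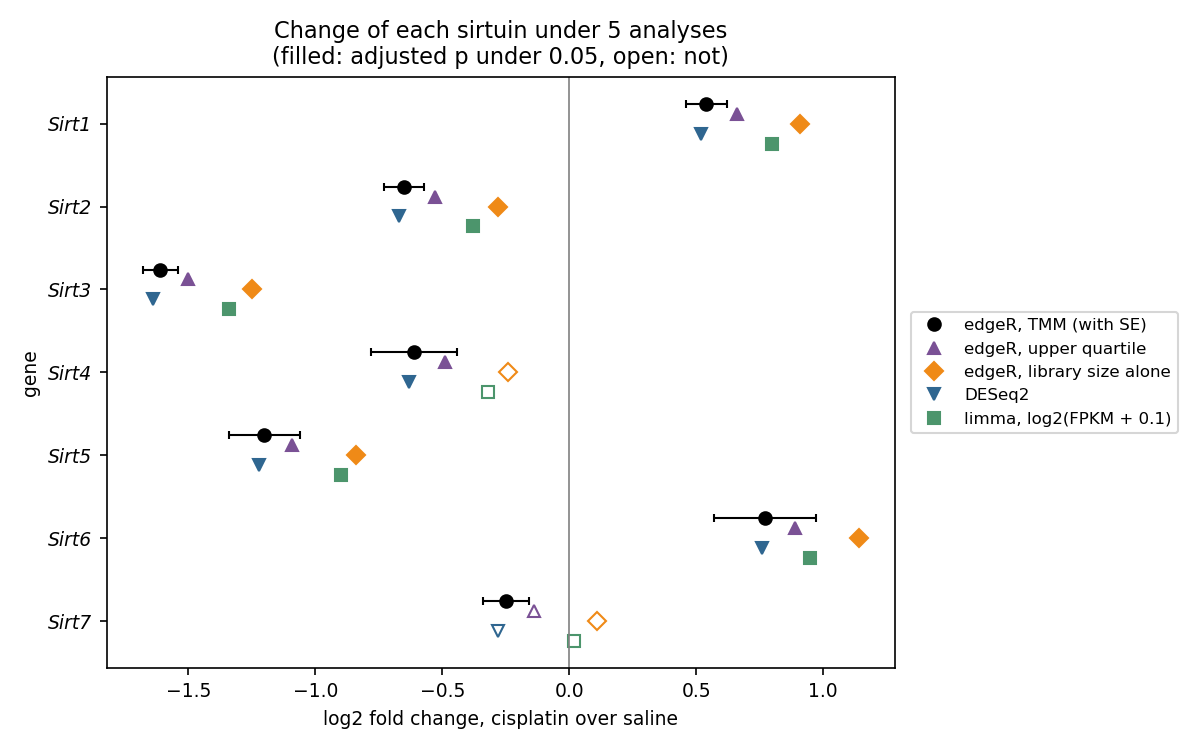
Log2 fold change of cisplatin over saline (horizontal axis) for each sirtuin (vertical axis) under 5 analyses; filled symbols passed an adjusted p of 0.05, open symbols did not, and whiskers are the SE of the edgeR fit with TMM. Sirt1, Sirt2, Sirt3, Sirt5 and Sirt6 keep their side of 0 and their call in all 5, Sirt4 keeps its side, and Sirt7 lies between -0.28 and 0.11.

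The scale of these changes is relative, since a shift common to every gene would not show. Over all tested genes the log2 fold change had a median of 0.04 with TMM. With upper-quartile scaling that median was 0.16, and with library size alone 0.41, where 9110 genes (52.3%) passed as higher and 4207 (24.2%) as lower, against 6487 and 6333 with TMM. In the fit on log2 of FPKM plus 0.1 by limma, over 28436 unfiltered genes, 25.5% passed as higher and 13.4% as lower. With a filter of 0.1 in 2 libraries, 39.9% of 19992 genes passed as higher and 20.9% as lower. Across all 16 fits the share called in either direction lay between 37.6% (DESeq2, 28482 unfiltered genes) and 78.2% (14435 protein-coding genes). These shares are over unlike sets of genes. Against TMM, library size alone raised the log2 fold change of nearly every gene by the same amount, between 0.36 and 0.37 from the 5th to the 95th percentile of genes, so a gene a little below 0 with TMM turns positive by construction. Upper-quartile scaling raised it by 0.12 at both percentiles. The distance of a sirtuin from the median of all genes is therefore nearly fixed under these scalings. The unfiltered fits on FPKM changed it. Sirt7 stood at -0.30 with TMM, at -0.19 with FPKM plus 0.1 and at -0.03 with FPKM plus 1. Sirt3 stood at -1.66 with TMM and at -1.54 and -1.30 in those fits, and Sirt1 at 0.50 with TMM and at 0.60 and 0.66. Those fits took their median over 28436 genes, against 17419 with TMM. With FPKM plus 0.1 and a filter of 0.1 in 2 libraries, Sirt7 stood at -0.29, Sirt3 at -1.64 and Sirt1 at 0.49, near the TMM values.

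Ratios of 2 sirtuins inside a library need no scaling between libraries, and 6 were computed from the counts. Sirt1 counts were 2.52 and 2.36 times the Sirt3 counts in the cisplatin libraries and 0.515 and 0.577 times in the saline libraries, so that the more counted gene of the pair differed between the groups. The mean log2 of this ratio was 1.29 after cisplatin and -0.88 after saline, a difference of 2.16. Counts do not allow for transcript length. In the deposited FPKM, whose gene lengths are not given, Sirt1 was below Sirt3 in every library. It stood at 0.890 and 0.835 times Sirt3 after cisplatin and 0.183 and 0.204 times after saline. The summed counts of the nuclear Sirt1, Sirt6 and Sirt7 were 2.71 and 2.54 times those of the mitochondrial Sirt3, Sirt4 and Sirt5 after cisplatin, against 0.756 and 0.809 times after saline. Sirt7 counts were 4.85 and 4.54 times those of Sirt6 after cisplatin and 10.3 and 9.09 times after saline. Within the mitochondrial group, Sirt4 counts were 0.174 and 0.192 times those of Sirt3 after cisplatin and 0.0910 and 0.0913 times after saline. Sirt1 over Sirt5 differed by 1.75 and Sirt2 over Sirt1 by -1.20 on the log2 scale, cisplatin minus saline. In all 6 ratios the groups did not overlap, and the two-sided exact permutation test gave p = 0.333 for each, the smallest that 2 libraries against 2 allow, and p = 0.333 after adjustment over the 6.

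Levels of different sirtuins were compared in FPKM, which is per transcript length. After cisplatin the order was Sirt2 with a mean of 10.4 FPKM, Sirt3 with 10.1, Sirt7 with 8.89, Sirt1 with 8.73, Sirt5 with 2.49, Sirt6 with 1.47 and Sirt4 with 1.42. The libraries of Sirt2 and Sirt3 overlapped there, as did those of Sirt7 and Sirt1, while the other neighbours did not. After saline Sirt3 led with a mean of 25.7 FPKM, ahead of Sirt2 with 13.6, Sirt7 with 8.80, Sirt1 with 4.98, Sirt5 with 4.75, Sirt4 with 1.80 and Sirt6 with 0.715. In that order Sirt1 and Sirt5 overlapped and the other neighbours did not. Among 14449 protein-coding genes tested, Sirt3 had a higher FPKM than 75.1% after cisplatin and than 90.2% after saline.

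The 7 sirtuins summed to 44.1 and 43.0 FPKM in the cisplatin libraries, below the 57.6 and 63.1 FPKM of the saline libraries. Of these sums Sirt3 made up 23.2% ± 0.511 after cisplatin and 42.6% ± 0.127 after saline (mean ± SD, n = 2 each). Sirt1 made up 20.04% ± 1.35 after cisplatin and 8.23% ± 0.671 after saline. The share of Sirt2 was 24.0% ± 1.65 after cisplatin and 22.6% ± 1.82 after saline, a difference smaller than the SD of either group. The 3 mitochondrial members made up 32.2% ± 0.0258 after cisplatin and 53.4% ± 0.691 after saline.

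**Figure D3:**
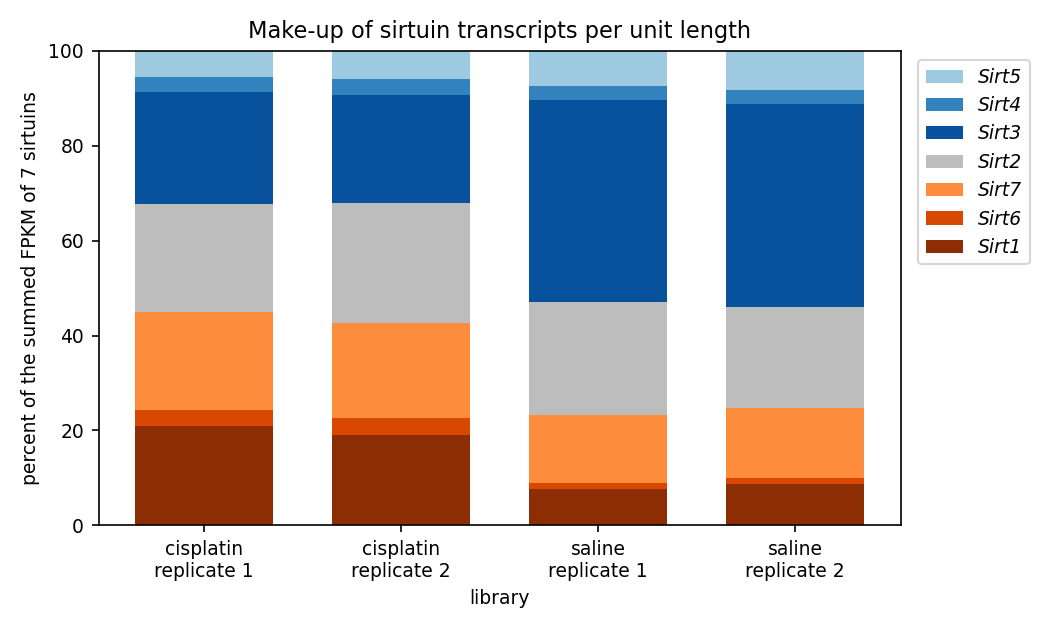
Share of each sirtuin in the summed FPKM of all 7 (vertical axis, percent) in each library; nuclear members are in orange and brown, Sirt2 in grey, mitochondrial members in blue. The mitochondrial share is 32.2% in both cisplatin libraries, against 52.9% and 53.9% in the saline libraries.

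In GENCODE M21 some sirtuin exons overlap exons of neighbouring genes. The deposited sirtuin identifiers carry earlier version numbers than those of M21, so overlaps in the gene models that were counted are not known. The sources used here do not say whether counting used strand or dropped shared reads. Sirt3 shares 418 exon bases with Ric8 (Ric8a in GENCODE M21) and 342 with Psmd13, both on the opposite strand. Ric8 had a log2 fold change of 0.95 and Psmd13 of 0.24, opposite in sign to Sirt3. Sirt7 shares 124 exon bases with Mafg on the same strand, which had a log2 fold change of 0.46, and 54 with the microRNA gene Mir6936, not analysed here, and Sirt2 shares 42 with Nfkbib on the opposite strand, which had 0.80. Each of these 4 neighbours, named after its value was seen, passed as higher in edgeR (largest adjusted p = 0.00184), Psmd13 not without cisplatin replicate 1 (adjusted p = 0.0855). Sirt1 shares 65 exon bases with the antisense gene model Gm16145, which was not analysed here.

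Cell type markers moved in the same libraries, and in whole kidney fewer cells of a type and less RNA per cell cannot be told apart. The counts of markers below stand beside 37.2% of all tested genes called higher and 36.4% called lower. All 12 proximal tubule markers were lower after cisplatin, with a median log2 fold change of -2.73, and all 9 of the thick limb and distal tubule, with a median of -1.76. The thick limb and distal list summed to between 2357 and 2443 CPM after cisplatin and between 7861 and 7951 CPM after saline. In the collecting duct list 6 of 9 were lower and 2 higher, with sums of 186 to 192 CPM after cisplatin and 406 to 409 CPM after saline. The 8 fibroblast and mural cell markers were all higher, with sums of 1498 to 1499 CPM after cisplatin and 462 to 477 CPM after saline. The 6 podocyte markers were all higher too, at 568 to 599 CPM after cisplatin and 369.8 to 377 CPM after saline. Endothelial markers were higher in 5 of 8 cases and lower in 2, with sums of 852 to 866 CPM after cisplatin and 673 to 675 CPM after saline. Of 10 macrophage and monocyte markers 7 were higher and 1 lower, with sums of 210.5 to 230 CPM after cisplatin and 93.2 to 103 CPM after saline. Much of that difference lay in Cd68, named after its value was seen, at 63.4 and 76.0 CPM after cisplatin against 1.68 and 1.56 CPM after saline. Csf1r was the lower member, and Ccr2 and Cx3cr1 did not pass. The 6 tested of 8 neutrophil markers were higher, with sums of 33.0 to 35.0 CPM after cisplatin and 2.99 to 4.38 CPM after saline. Of lymphocyte markers 2 of 5 tested were higher, with sums of 4.86 to 5.10 CPM after cisplatin and 3.07 to 4.06 CPM after saline. The part of these lists in the sirtuin values was not tested.

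Genes of the synthesis and salvage of NAD, the cofactor of every sirtuin, were lower in 12 of 12 tested cases, with a median log2 fold change of -2.16 beside 0.04 for all tested genes and a background of 36.4% called lower. The list held 17 genes, 2 of which lead away from NAD and are left out of that count, and Nmnat2, Nmrk2 and Tdo2 did not pass the filter. With those 2, a split by role made after the values were seen, 13 of 14 were lower and 1 higher. Nampt, the rate-limiting enzyme of the salvage of nicotinamide, had 188 and 179 CPM after cisplatin against 295 and 309 CPM after saline (log2 fold change -0.72). Nmnat1, the nuclear adenylyltransferase that completes NAD, had 11.5 and 12.6 CPM after cisplatin against 19.0 and 20.6 CPM after saline (-0.72), although its call was lost in the unfiltered fits on FPKM. Nmnat3, Nmrk1, Qprt and Nadsyn1 had larger falls. Nmnat3, its mitochondrial relative, had 3.46 and 3.86 CPM after cisplatin against 17.9 and 17.2 CPM after saline (-2.26). Nmrk1, a nicotinamide riboside kinase, had 28.3 and 30.2 CPM after cisplatin against 131 and 128 CPM after saline (-2.14). Qprt, which joins quinolinate from tryptophan to the NAD pathway, had the largest fall of those named here, to 10.8 and 11.95 CPM after cisplatin against 79.9 and 78.8 CPM after saline (-2.80). Nadsyn1, the NAD synthetase of the routes from tryptophan and nicotinic acid, had 10.9 and 11.5 CPM after cisplatin against 38.9 and 38.3 CPM after saline (-1.78). Of the 2 genes that lead away from NAD, Acmsd, which diverts the tryptophan route and was named after its value was seen, had 32.5 and 30.8 CPM after cisplatin against 179.5 and 189.8 CPM after saline (-2.54). The other was Nnmt, which methylates nicotinamide and so removes it from salvage; it rose, at 3.63 and 2.28 CPM after cisplatin against 1.08 and 0.779 CPM after saline (1.68).

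Of 15 tested members of 16 other enzymes that consume NAD, 7 were higher and 3 lower, where 37.2% of all tested genes were higher and 36.4% lower. The list had a median log2 fold change of 0.20. With library size alone 11 were higher and 1 lower, where 52.3% of all tested genes were higher and 24.2% lower. Parp1, the main poly(ADP-ribose) polymerase of the DNA damage response, had 34.3 and 32.5 CPM after cisplatin against 61.6 and 62.5 CPM after saline (log2 fold change -0.89; edgeR, adjusted p = 4.25e-10). Parp2, a related polymerase, had 14.8 and 14.4 CPM after cisplatin against 14.6 and 13.1 CPM after saline, and the groups overlapped; it did not pass with TMM, but passed as higher with library size alone and in the fits on FPKM. Bst1, an ectoenzyme that cleaves NAD, rose to 34.0 and 28.7 CPM after cisplatin, against 8.93 and 10.2 CPM after saline. Its relative Cd38 had 21.8 and 20.6 CPM after cisplatin against 19.4 and 17.6 CPM after saline and did not pass (edgeR, adjusted p = 0.0754; between 1.29e-05 and 0.0447 in 7 alternatives that called it higher). Tnks and Tnks2, the tankyrases, were lower at -0.31 and -0.36, but stood at 0.06 and 0.01 with library size alone; Tnks2 was named after its value was seen.

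Of 8 genes known to regulate Sirt1, 7 were higher and 1 lower, with a median log2 fold change of 0.64, where 37.2% of all tested genes were higher and 36.4% lower. Among them are both activators and inhibitors. Rps19bp1 (AROS), described as an activator of SIRT1, had 22.4 and 21.0 CPM after cisplatin against 9.90 and 7.50 CPM after saline (log2 fold change 1.34). Usp22, a deubiquitinase that stabilises the SIRT1 protein, had 113 and 114 CPM after cisplatin against 59.8 and 63.6 CPM after saline (0.87). Hic1, a repressor of Sirt1 transcription, had 8.60 and 7.98 CPM after cisplatin against 3.08 and 4.55 CPM after saline (1.09). Ccar2 (DBC1), which inhibits SIRT1, had 33.2 and 31.9 CPM after cisplatin against 26.5 and 27.3 CPM after saline (0.27), a call that DESeq2 did not make (0.25, adjusted p = 0.0782) and that was lost without cisplatin replicate 1 (0.25; edgeR, adjusted p = 0.0512), at nearly the same size. The member that was lower, Ctbp1, was named after its value was seen; it had a log2 fold change of -0.22 with TMM and of 0.14 with library size alone.

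Of 17 transcription and repair factors that sirtuins deacetylate 9 were higher and 7 lower, with a median log2 fold change of 0.31. Among all tested genes the calls were about as even, with 37.2% higher and 36.4% lower. Trp53, which encodes p53, had 24.3 and 29.4 CPM after cisplatin against 6.01 and 5.24 CPM after saline (2.26). Rela, a subunit of NF-kB, had 44.0 and 46.5 CPM after cisplatin against 8.50 and 12.3 CPM after saline (2.10). Both lay far above their saline libraries. Ppargc1a, the coactivator of mitochondrial genes, had 44.4 and 48.2 CPM after cisplatin against 133 and 134 CPM after saline (-1.52). Foxo3 had 96.6 and 96.2 CPM after cisplatin against 139 and 131 CPM after saline (-0.49), and its call was lost with library size alone and in the fits on FPKM. Foxo1, a relative of Foxo3, stood at -0.29 with TMM and at 0.07 with library size alone.

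Mitochondrial proteins known to be modified by Sirt3, Sirt4 or Sirt5 were lower at the transcript level in 20 of 22 tested cases, with a median log2 fold change of -1.16, beside the background of 36.4% called lower. The list held 23 genes, and Cps1, a liver enzyme, did not pass the filter. Idh2, an NADP-dependent isocitrate dehydrogenase activated by Sirt3, had 128 and 119 CPM after cisplatin against 436 and 457 CPM after saline (-1.86). Sod2, the mitochondrial superoxide dismutase, had 174 CPM in each cisplatin library against 429 and 441 CPM in the saline libraries (-1.32). Both encode substrates of Sirt3, and for both the groups lay far apart. Mlycd, a malonyl-CoA decarboxylase and Sirt4 substrate, had 14.1 and 14.5 CPM after cisplatin against 36.9 and 34.1 CPM after saline (-1.31). Falls were smaller for the long-chain acyl-CoA dehydrogenase gene Acadl, at -0.39, and for Glud1, the glutamate dehydrogenase that Sirt4 restrains, at -0.32; with library size alone Acadl stood at -0.03 and Glud1 at 0.05, and neither passed. The gene that passed as higher was Mdh2, a malate dehydrogenase named after its value was seen, at 0.18, and without saline replicate 2 it stood at 0.06 (edgeR, adjusted p = 0.527).

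**Figure D4:**
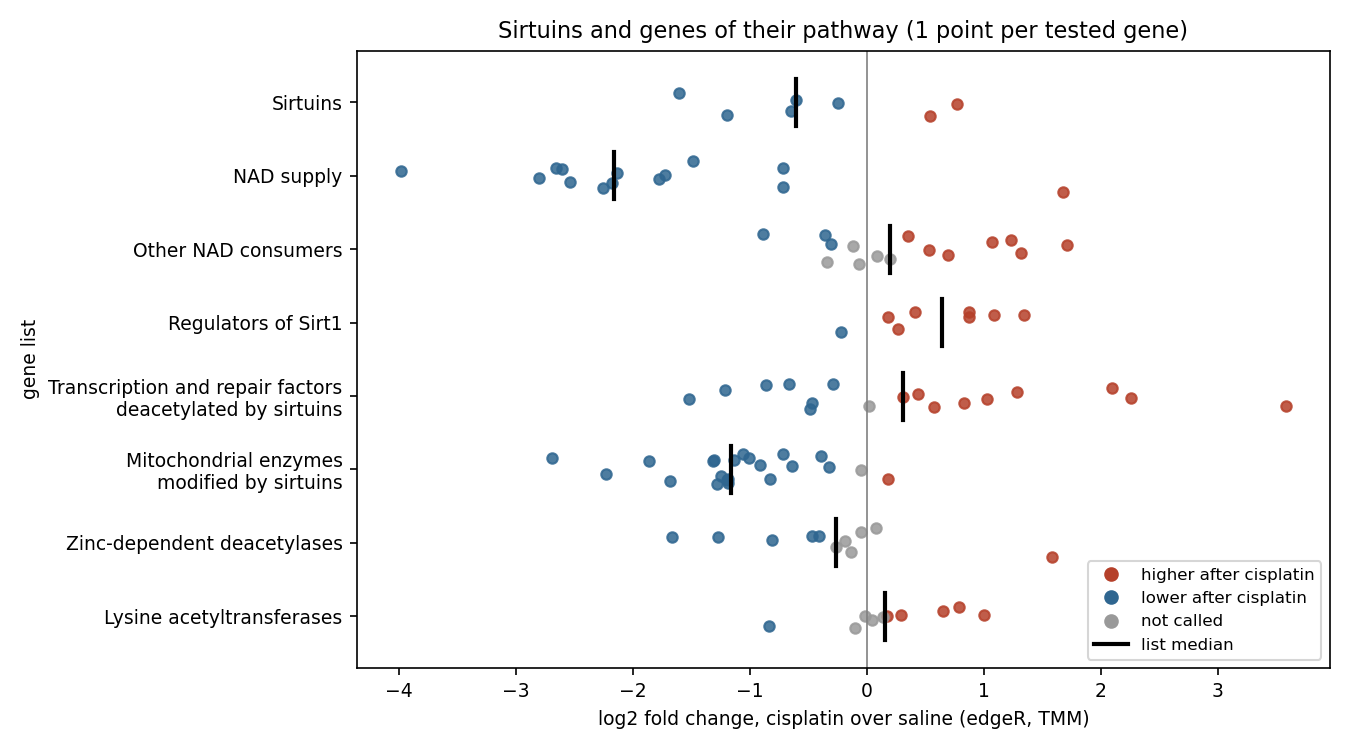
Log2 fold change of cisplatin over saline (horizontal axis) of every tested gene of 8 lists (vertical axis), coloured by the edgeR call; black bars are list medians. The medians run from -2.16 for NAD supply to 0.64 for regulators of Sirt1, and that of the sirtuins is -0.61.

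The zinc-dependent deacetylases remove acetyl groups without NAD and are set beside the sirtuins for that reason. Of 11 members 1 was higher and 5 lower, beside 37.2% and 36.4% of all tested genes, and the list had a median log2 fold change of -0.26, against -0.61 for the sirtuins. Hdac11, the sole member of its class, had 11.1 and 10.8 CPM after cisplatin against 35.9 and 34.1 CPM after saline (-1.67). Hdac1, a nuclear corepressor subunit, had 48.0 and 46.5 CPM after cisplatin against 52.2 and 45.9 CPM after saline, and the groups overlapped; its log2 fold change was -0.05 with TMM and 0.32 with library size alone. Hdac9 stood at 1.35 and 1.08 CPM after cisplatin against 1.52 and 1.39 CPM after saline and did not pass (edgeR, adjusted p = 0.484); its log2 fold change was -0.26 with TMM and 0.11 with library size alone. The remaining calls, named after their values were seen, were Hdac7 at 1.58 and Hdac3, Hdac6, Hdac8 and Hdac10 at -0.47, -0.41, -1.27 and -0.81. With library size alone 3 members were higher and 3 lower.

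Lysine acetyltransferases add the groups that sirtuins remove. Of 10 members 5 were higher and 1 lower, beside 37.2% and 36.4% of all tested genes, and the list had a median log2 fold change of 0.15. Ep300, which encodes the coactivator p300, had 107 and 115 CPM after cisplatin against 72.4 and 69.4 CPM after saline (0.65). Its relative Crebbp had 94.9 and 99.6 CPM after cisplatin against 89.9 and 83.1 CPM after saline (0.17; edgeR, adjusted p = 0.0119), a call lost with DESeq2 (adjusted p = 0.125) and without cisplatin replicate 2 or saline replicate 2. Kat2b, which encodes PCAF, had 74.8 and 69.1 CPM after cisplatin against 129 CPM in each saline library (-0.84). Kat7, Kat8 and Kat2a, named after their values were seen, were higher at 1.00, 0.79 and 0.29, Kat2a not with DESeq2, nor without cisplatin replicate 1 or saline replicate 2. With library size alone 9 of the 10 were higher, beside 52.3% of all tested genes, and without saline replicate 2 the counts were 3 higher and 2 lower.

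The genes whose pattern lay nearest to each sirtuin were found among 10788 genes averaging at least 5 CPM, by the Euclidean distance of centred log2 CPM over the 4 libraries. With 2 libraries a group this distance mostly follows the fold change, and it is given as a description. Nearest to Sirt3 were Pipox, a peroxisomal oxidase of pipecolate and sarcosine, at a distance of 0.00601, and Ak3, a mitochondrial adenylate kinase family member, at 0.00990. Nearest to Sirt1 were the chaperonin subunit gene Cct3 at 0.0184 and the mitochondrial methionyl-tRNA synthetase gene Mars2 at 0.0304. Sirt5 lay nearest to Gfm2, a mitochondrial translation factor, at 0.0305 and to Ngly1, a deglycosylating enzyme, at 0.0313. For Sirt2 they were the zinc finger gene Zfp174 at 0.0176 and the thioredoxin gene Txn1 at 0.0340, and for Sirt4 the mannosyltransferase gene Pomt2 at 0.0300 and Clint1, a clathrin adaptor, at 0.0316. Sirt6 was farthest from its neighbours, Tshz2 at 0.0362 and Bahcc1 at 0.0461. Its own means, 4.93 CPM after cisplatin and 2.86 CPM after saline, lay below the 5 CPM asked of neighbours. Nearest to Sirt7 were Rassf8 at 0.0156 and Ppp1cb, a catalytic subunit of protein phosphatase 1, at 0.0172. Both of these, like Sirt7, turned positive with library size alone.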

How the data were processed

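Tests used whole-number read counts for each gene, as the authors deposited them. A second table deposited by the authors, with FPKM values for 29157 genes, served for levels between genes and as an alternative. Per the submitters' processing notes, bcl2fastq, TopHat2, edgeR and GRCm38 were used, with no version given. The sources used here do not name the program that counted reads. Per the labels' protocols, libraries were directional, depleted of ribosomal RNA and read as pairs of 150 nt. Members and gene lists were chosen with earlier results of these data known.

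Counts were filtered with filterByExpr, scaled by TMM (factors 1.15 and 1.12 for cisplatin, 0.861 and 0.901 for saline) and tested with edgeR 4.0.16 in R 4.3.3 on the 4 libraries together (residual degrees of freedom 2). A gene was called at a Benjamini-Hochberg adjusted p under 0.05 over 17419 genes, and no p was adjusted over a list alone. The SE was the log2 fold change over the root of its F statistic. Replicates differed by more than sampling noise (chi-square over degrees of freedom of 11.5 for cisplatin and 36.6 for saline). A floor of 3 counts equals 0.116 to 0.162 CPM, and no molecular identifiers are described, so intervals cover counting error only.

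Alternatives used relative log expression, upper-quartile or no composition factors, no filter or 1 CPM in 2 libraries, DESeq2 1.42.0, limma 3.58.1 on log2 of FPKM plus 0.1 or 1, a block for replicate number, and fits that omit 1 library. A fit on protein-coding genes alone was chosen after seeing the data. Tests were run first on simulated counts. Permutation tests used scipy 1.17.1 and plots matplotlib 3.10.9.

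Named genes were the 7 sirtuins, 33 genes chosen by role from 7 pathway lists, and the 2 nearest genes of each sirtuin. 1 of the genes chosen by role is not reported here. Promoters came from RefSeq on GRCm38.p6, spans and exons from GENCODE M21 on GRCm38, matched by identifiers without version. Both share the build named in the notes.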

Additional observations from a re-analysis of the deposited data

How the results depend on the processing

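Over 15 alternative settings the calls of Sirt1, Sirt2, Sirt3, Sirt5 and Sirt6 kept direction and threshold. The count of sirtuins called lower was 5 with TMM, 3 with library size alone, 3 in each of the fits on FPKM, and 4 to 5 when a library was left out. With library size alone 4207 of all genes were lower, against 6333 with TMM, and 9110 were higher. The lists then gave 11 NAD consumers higher and 1 lower, 4 transcription and repair factors lower, 2 mitochondrial enzymes higher, 3 zinc-dependent deacetylases higher and 3 lower, and 9 acetyltransferases higher. In the fits on FPKM plus 0.1, FPKM plus 1, and FPKM plus 0.1 with a filter of 0.1 in 2 libraries, 3804, 3784 and 4171 genes were lower. The same fits, in that order, gave 3, 3 and 4 transcription and repair factors lower, 1 NAD consumer lower each, 2, 2 and 3 zinc-dependent deacetylases higher, and 2, 2 and 3 lower. Of the regulators of Sirt1, edgeR with upper-quartile scaling or library size alone and limma in the 3 fits on FPKM called 0 lower, also 0 at an unadjusted p under 0.05. Upper-quartile scaling gave 2 zinc-dependent deacetylases higher. DESeq2 gave 4 regulators of Sirt1 higher, 3 acetyltransferases higher, and 0 mitochondrial enzymes higher, also 0 at an unadjusted p under 0.05. With a library left out, mitochondrial enzymes higher numbered 0 to 1, acetyltransferases higher 3 to 5 and lower 1 to 2; edgeR's 0, without cisplatin replicate 2 or saline replicate 2, was also 0 at an unadjusted p under 0.05. All these calls were made against a log2 fold change of 0. The median of all genes lay at 0.04 with TMM and at 0.41 with library size alone.

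Library size alone added between 0.36 and 0.37 to the log2 fold change of most genes (5th to 95th percentile), so values just below 0 with TMM turn positive by construction. Among the genes named in this text these were Sirt7 (0.11), Tnks (0.06), Tnks2 (0.01), Foxo1 (0.07), Glud1 (0.05), Hdac1 (0.32), Hdac9 (0.11), Rassf8 (0.12), Ppp1cb (0.13) and Ctbp1 (0.14). In the 3 fits on FPKM, Sirt7 stood at 0.02, Rassf8 at 0.02, Ppp1cb at 0.03, Ctbp1 at 0.05, 0.04 and 0.05, and Hdac1 at 0.22, 0.21 and 0.22. Hdac1 was at 0.07 with upper-quartile scaling and between -0.15 and 0.03 with a library left out. For the fits on FPKM, which change unit, model and scaling together, and for the library left out, the cause was not tested. No ratio within a library reversed. The labels do not say that replicate numbers pair the libraries, and the deviations of same-numbered libraries correlated at -0.0213. With a replicate block 12653 genes were called, against 12820 without it, with 2 sirtuins higher and 5 lower. With 2 libraries a group, a fit that leaves 1 out assumes that the lone library varies like the others. Depth limits Sirt6 and Sirt4 most, as they have the fewest counts.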
